A study of Mus musculus with 18 samples.

Results

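Otx2, Pou3f1, Sox3, Sox4, Zic2, Zic5, Foxd3, Lin28b and Sox11 are 9 genes grouped here as factors of the formative and primed mouse epiblast. They were taken by symbol from the deposited table of 49671 genes, through the Ensembl identifiers of GRCm38, and each of the 9 was found once and passed the filter on low counts in every fit. Their RNA was followed in 6 groups of 3 samples. Wild-type E14 embryonic stem (ES) cells at passage 20 were grown as 3D cultures in Matrigel for 48 h in N2B27 medium with 1 of 4 supplements. CH held 3 µM CHIR99021, which inhibits Gsk3 and so switches on Wnt/β-catenin signalling, and DMSO, its solvent, served as the control. The 2i medium held 3 µM CHIR99021 and 0.4 µM of the Mek inhibitor PD0325901, and the Fgf2/Activin medium held Activin A at 20 ng/ml with Fgf2 at 12 ng/ml. The other groups came from Esrrb fl/fl ES cells with a tamoxifen-inducible Cre (MerCreMer) at passage 25, left without (Esrrb NT) or given (Esrrb 4OHT) 4-hydroxy tamoxifen for 1 day and then grown in Matrigel in 3 µM CHIR99021 for 24 h. All lines had been kept in 2i with Lif before, so every group started from the naive state, and both Esrrb groups held CHIR99021. The Esrrb line carries the strain label Acr-EGFP transgenic mice, against 12910la for E14, so line, strain, passage and culture time go together and cannot be told apart between the E14 and the Esrrb groups. No control with 4OHT but an intact Esrrb gene was among the 18 samples, so the agent and the deletion cannot be told apart either. The labels do not say whether the samples of a group came from separate cultures, so p-values measure the spread between these samples, which may be technical.

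In culture the naive state of ES cells is held by Wnt activity, Lif and inhibition of Mek, and its network includes Esrrb, an orphan nuclear receptor. When these inputs end, cells pass through a formative state into the primed state, which Fgf and Activin sustain. Otx2 is a homeodomain factor that redirects Oct4 to new enhancers in the formative state, often together with the POU factor Pou3f1 (Oct6). Sox3 belongs to the SoxB1 group with Sox2, and Sox4 and Sox11 are SoxC factors. Zic2 and Zic5 are zinc finger factors, Foxd3 is a forkhead factor of the epiblast and later of the neural crest, and Lin28b is an RNA-binding protein that blocks maturation of let-7 miRNAs. The question was whether loss of Esrrb under CHIR99021 raised these genes as the solvent or Fgf2/Activin did.

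In GRCm38 the genes lie at chr14:48657677-48673819 on the minus strand (Otx2), chr4:124656807-124660655 on the plus strand (Pou3f1), chrX:60891366-60893430 on the minus strand (Sox3), chr13:28948919-28953713 on the minus strand (Sox4), chr4:99656299-99658622 on the plus strand (Foxd3), chr10:45376620-45486395 on the minus strand (Lin28b) and chr12:27334264-27342574 on the minus strand (Sox11). Zic2 at chr14:122475435-122479852 and Zic5 at chr14:122456795-122465677 face away from each other, with 9757 bases between their starts. Of the exon sequence of Sox4, 54.56% overlaps Gm26735, annotated on the other strand. The counts were made without regard to strand and Gm26735 was at 0 in all samples, so the Sox4 level may leave out reads of the shared stretch. The overlap was 8.57% for Pou3f1, 3.98% for Otx2 and 3.83% for Foxd3, and the overlapping genes that are in the table held at most 12 counts.

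Otx2, Zic5 and Foxd3 are the members called lower after 4OHT, and promoter windows are shown for that reason. Otx2 has 4 windows, of which the one with a motif match is printed, and Zic5 and Foxd3 have 1 each. The windows are 300 bases long, span an annotated start, were taken from RefSeq on GRCm38.p6 and are written 5′ to 3′ on the gene's strand. The Otx2 window is chr14:48665060-48665359, the Zic5 window is chr14:122465609-122465908 and the Foxd3 window is chr4:99656049-99656348. Capitals mark a match to a searched motif.
Otx2: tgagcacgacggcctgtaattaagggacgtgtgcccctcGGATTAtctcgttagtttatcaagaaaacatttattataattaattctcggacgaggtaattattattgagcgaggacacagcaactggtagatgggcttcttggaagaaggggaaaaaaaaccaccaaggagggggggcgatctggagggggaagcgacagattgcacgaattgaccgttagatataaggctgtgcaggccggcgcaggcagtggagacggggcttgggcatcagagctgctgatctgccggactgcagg
Zic5: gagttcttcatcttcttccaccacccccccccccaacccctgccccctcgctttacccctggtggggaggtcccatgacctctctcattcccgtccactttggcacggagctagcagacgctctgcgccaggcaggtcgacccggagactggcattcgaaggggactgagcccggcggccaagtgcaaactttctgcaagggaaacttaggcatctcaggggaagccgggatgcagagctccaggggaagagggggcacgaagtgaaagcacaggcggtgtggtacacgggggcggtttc
Foxd3: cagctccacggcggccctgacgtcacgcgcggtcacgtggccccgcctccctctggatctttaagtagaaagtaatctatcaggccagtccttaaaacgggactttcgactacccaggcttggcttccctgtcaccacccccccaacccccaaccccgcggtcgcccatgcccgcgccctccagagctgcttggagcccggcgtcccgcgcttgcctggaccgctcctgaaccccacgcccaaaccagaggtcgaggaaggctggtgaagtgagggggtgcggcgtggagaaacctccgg
The following 3 motifs were searched on both strands and none overlaps another in these windows. AAGGTCA, the element bound by estrogen-related receptors such as Esrrb, occurred in 4.72% of 32851 RefSeq promoter windows of the same length, CTTTGA, the core of the TCF/LEF site, in 16.0% and TAATCC, the core of the OTX site, in 7.06%. Windows were listed for 6 of the 9 genes. The Otx2 window shown holds TAATCC on the opposite strand, 211 bases before the start, and it was the only match among all windows of those 6 genes. A missing match says only that these letters are not in the window.

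The samples numbered 1 stood apart in every group. Their counts differed from those of samples 2 and 3 of the same group by a chi-square per gene of 11.84 to 65.86, against 1.465 to 8.567 between samples 2 and 3, so no pair agreed within sampling noise. For the 9 genes they were the lowest of the group in 45 of 54 combinations of gene and group, between 6 of 9 genes in Fgf2/Activin and 9 of 9 in Esrrb 4OHT, while between 39.71% and 41.96% of all genes had the sample numbered 1 at the lowest. Values without the samples numbered 1, an alternative chosen after the data were seen, are therefore given beside the results. Those fits hold only samples 2 and 3 of each group, so 2 per group. Their p-values measure the spread between samples 2 and 3, the closest ones, and leave out that of sample 1. Low p-values in those fits are therefore no measure of the spread over all samples. Total counts were 19915222 to 20140699 per sample in the Esrrb groups and 25388139 to 37158661 in the E14 groups. Levels are given as CPM, the count of a gene relative to the size of its library after TMM scaling. Differences were tested with the quasi-likelihood test of edgeR, and the edgeR adjusted p is its p-value after Benjamini-Hochberg adjustment over all genes tested. To be called, a gene needed an adjusted p below 0.01 together with a log2 fold change beyond 1 in size, and fold changes are followed by their standard error.

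**Figure D1:**
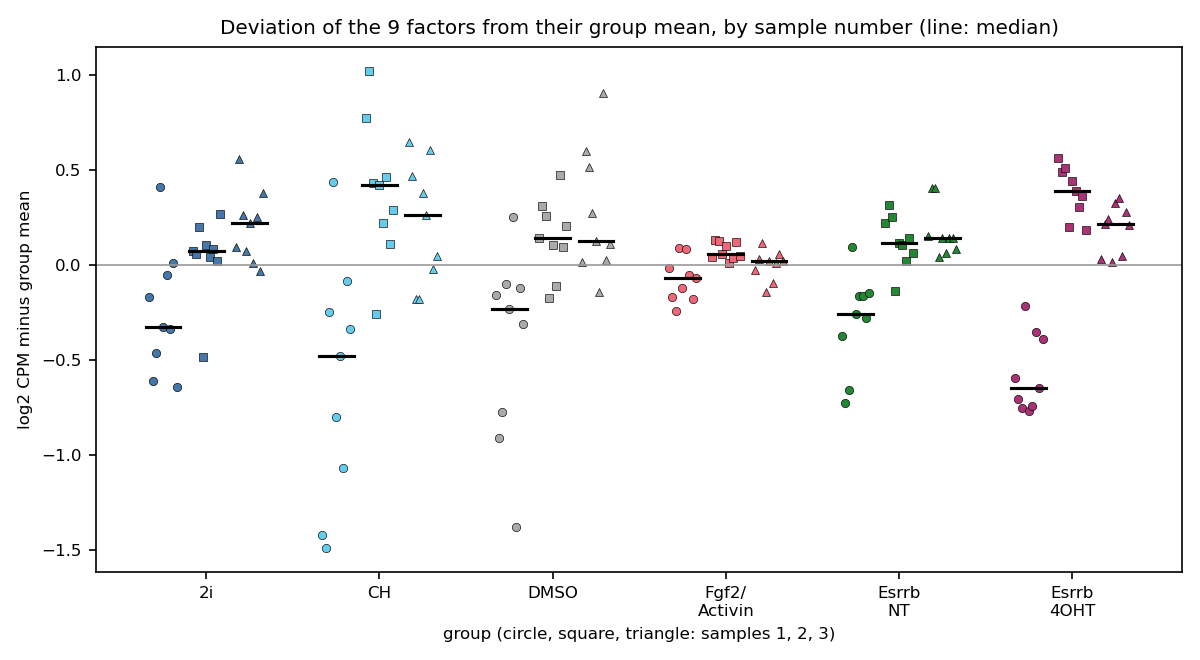
Deviation of each of the 9 genes from its group mean (y axis, log2 CPM) in samples 1, 2 and 3 of the 6 groups (x axis), with 1 point per gene and a line at the median. The samples numbered 1 lie lowest in 45 of 54 combinations of gene and group.

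Esrrb, the deleted gene, was at 144, 111 and 110 CPM in Esrrb NT and at 58.1, 62.7 and 58.7 CPM in Esrrb 4OHT. The groups did not overlap, and the log2 fold change of -0.99 ± 0.10 passed the p-value but not the fold of a call (edgeR adjusted p = 7.44e-05). The counts cover all exons of the gene, so they cannot show the removed part on its own. In E14 cells Esrrb was at 321 ± 38.8 CPM (SD, n = 3) in CH, 550 ± 17.9 CPM in 2i, 15.4 ± 12.9 CPM in DMSO and 14.1 ± 6.54 CPM in Fgf2/Activin.

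All 9 genes had their highest mean in DMSO (4 genes) or Fgf2/Activin (5 genes), the cultures without CHIR99021. The lowest mean was in 2i for 6 genes, in Esrrb 4OHT for Zic2 and Zic5, and in CH for Foxd3. The mean was higher in Esrrb NT than in Esrrb 4OHT for 8 of the 9 genes, and Sox3 was the exception.

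**Figure D2:**
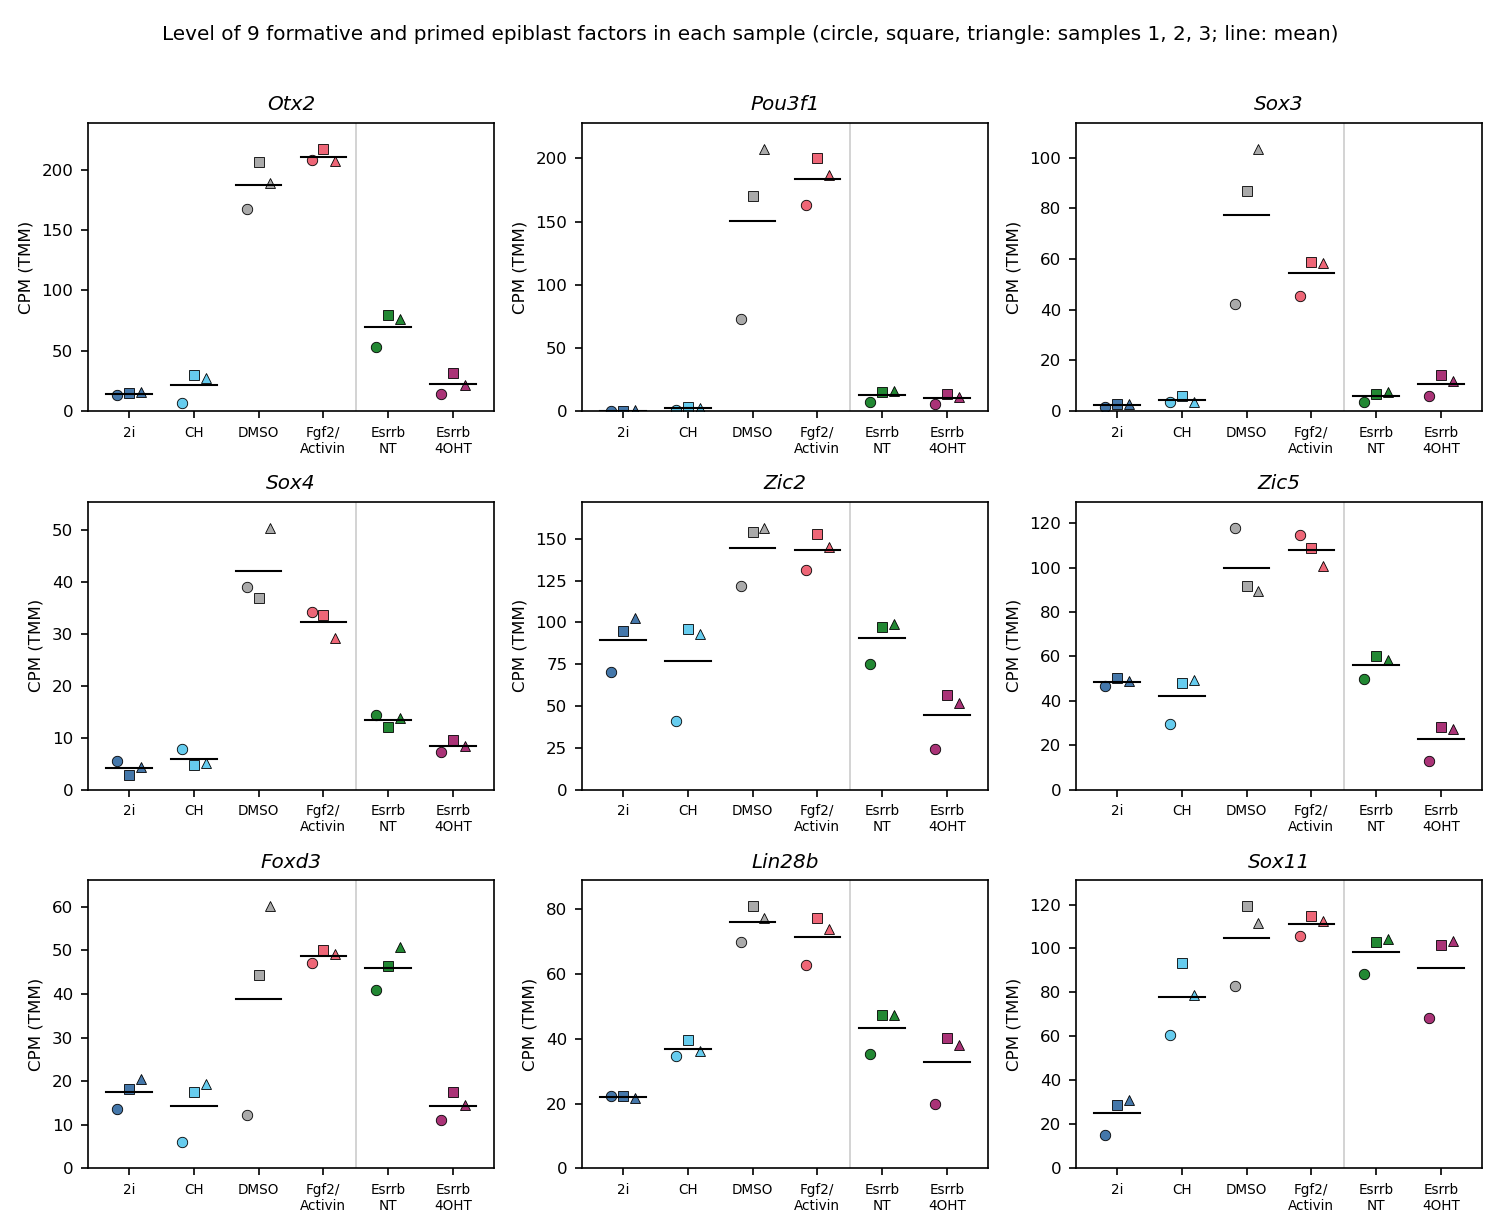
Level of each gene (y axis, CPM after TMM scaling, linear from 0) in the 6 groups (x axis), with 1 point per sample, shaped by its number, and a line at the mean of 3 samples. DMSO and Fgf2/Activin stand above CH and 2i for Otx2, Pou3f1, Sox3 and Sox4, and the Esrrb 4OHT samples lie below the Esrrb NT samples for Otx2, Zic2, Zic5, Foxd3 and Sox4.

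Otx2 was at 168, 207 and 189 CPM in DMSO and at 208, 217 and 207 CPM in Fgf2/Activin. In CH it was at 6.44, 29.8 and 27.3 CPM and in 2i at 12.8, 15.2 and 15.4 CPM. Every DMSO and Fgf2/Activin sample was above every CH and 2i sample. The Esrrb NT samples were at 52.9, 80.0 and 76.3 CPM and the Esrrb 4OHT samples at 14.1, 31.5 and 21.8 CPM. After 4OHT Otx2 stood at 0.322 of the NT mean, while DMSO stood at 8.88 times the CH mean. The log2 fold change was 3.15 ± 0.41 for DMSO against CH (edgeR adjusted p = 0.000122). It was -1.60 ± 0.26 for Esrrb 4OHT against NT (edgeR adjusted p = 0.000856). Without the samples numbered 1 these were 2.78 and -1.52.

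Pou3f1 had the widest range, from 0.139 CPM in a 2i sample to 207 CPM in a DMSO sample. The DMSO samples were at 72.7, 170 and 207 CPM, the Fgf2/Activin samples at 163, 201 and 187 CPM, and the CH samples at 0.511, 3.27 and 2.20 CPM. The 2i samples held 4, 9 and 13 counts. DMSO was at 75.4 times the mean of CH and Fgf2/Activin at 92.1 times, with log2 fold changes of 6.23 ± 0.54 (edgeR adjusted p = 6.92e-06) and 6.52 ± 0.55 (edgeR adjusted p = 5.12e-06). After 4OHT no rise was detected. The NT samples were at 7.18, 14.9 and 15.8 CPM and the 4OHT samples at 5.76, 13.3 and 10.9 CPM, and the groups overlapped. The log2 fold change of -0.30 had a 95% interval from -1.08 to 0.48 (edgeR adjusted p = 0.477). Without the samples numbered 1 the DMSO and 4OHT values were 6.07 and -0.31.

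Sox3 was at 42.2, 86.7 and 103 CPM in DMSO, 45.6, 58.9 and 58.6 CPM in Fgf2/Activin and 3.54, 5.72 and 3.72 CPM in CH. No DMSO or Fgf2/Activin sample reached down to the CH samples, with log2 fold changes of 4.15 ± 0.35 and 3.64 ± 0.34, or 4.30 and 3.61 without the samples numbered 1. It was the only member with a positive log2 fold change after 4OHT. The NT samples were at 3.54, 6.73 and 7.50 CPM and the 4OHT samples at 5.80, 14.1 and 11.6 CPM, higher in each of the 3 pairs of equal number but with overlapping groups. The value of 0.86 ± 0.35, with a 95% interval from 0.07 to 1.66, did not pass the test (edgeR adjusted p = 0.0608). With the sample number as a block it was 0.85 (edgeR adjusted p = 6.98e-05) and without the samples numbered 1 it was 0.89 (edgeR adjusted p = 1.08e-06), so both passed the p-value but stayed under the fold set for a call. It was called without the Esrrb 4OHT sample numbered 1 alone, at 1.15 (edgeR adjusted p = 0.00518). The 4OHT level was 1.77 times that of NT, against 17.9 times for DMSO over CH.

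Sox4 and Sox11 are both SoxC genes. Sox4 was at 39.1, 37.1 and 50.5 CPM in DMSO and at 7.83, 4.80 and 5.08 CPM in CH, with no overlap and a log2 fold change of 2.83 ± 0.25 (edgeR adjusted p = 6.79e-06). Sox11 was at 83.2, 119 and 111 CPM in DMSO and at 60.6, 93.5 and 78.9 CPM in CH, where the groups overlapped and the log2 fold change of 0.42 did not pass (edgeR adjusted p = 0.179). Neither SoxC gene was called after 4OHT, and the difference between them was not tested. Sox4 was at 14.3, 12.2 and 13.8 CPM in NT and at 7.20, 9.64 and 8.45 CPM in 4OHT, a log2 fold change of -0.63 ± 0.13 that passed the p-value but not the fold set for a call (edgeR adjusted p = 0.00341). Sox11 was at 88.6, 103 and 104 CPM in NT and at 68.3, 102 and 104 CPM in 4OHT, with a 95% interval of the log2 fold change from -0.41 to 0.26. Without the samples numbered 1 the DMSO and 4OHT values were 3.13 and -0.48 for Sox4 and 0.41 (edgeR adjusted p = 0.000122) and 0.02 for Sox11. The group in which Sox11 stood out was 2i, at 15.3, 28.8 and 31.2 CPM.

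Zic2 and Zic5, the neighbours on chromosome 14, had like patterns. Zic5 was at 118, 91.8 and 89.6 CPM in DMSO, 115, 109 and 101 CPM in Fgf2/Activin and 29.5, 47.9 and 49.4 CPM in CH. The NT samples were at 50.0, 60.4 and 58.5 CPM and the 4OHT samples at 12.8, 28.0 and 27.3 CPM. Zic5 was thus 2.36 times higher in DMSO than in CH but 2.48 times lower in 4OHT than in NT. Zic2 was at 122, 154 and 157 CPM in DMSO and at 41.0, 95.9 and 92.9 CPM in CH. In NT it was at 75.0, 97.2 and 99.0 CPM and in 4OHT at 24.4, 56.6 and 52.1 CPM. For both genes the 4OHT samples lay below all NT samples. The log2 fold change after 4OHT was -1.27 ± 0.25 for Zic5 (edgeR adjusted p = 0.00210) and -0.99 ± 0.26 for Zic2 (edgeR adjusted p = 0.0112). Zic2 passed with the sample number as a block, at -1.04 (edgeR adjusted p = 5.96e-06). It also passed without the 4OHT sample numbered 2, at -1.21, and without the NT sample numbered 1, at -1.11. Zic5 lost the call without the 4OHT sample numbered 1, at -0.99. It kept the call without all samples numbered 1, at -1.07, where Zic2 had -0.82.

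Foxd3 was at 12.2, 44.4 and 60.1 CPM in DMSO, 47.1, 50.1 and 49.2 CPM in Fgf2/Activin and 5.99, 17.5 and 19.3 CPM in CH. The DMSO sample numbered 1 lay within the range of the CH samples. The log2 fold change for DMSO against CH was 1.44 ± 0.51 (edgeR adjusted p = 0.0411). It passed at 1.87 without the DMSO sample numbered 1 (edgeR adjusted p = 0.00249), at 1.49 without all samples numbered 1 and at 1.38 with the sample number as a block (edgeR adjusted p = 0.00513). In the Esrrb line the groups did not overlap. Foxd3 was at 41.0, 46.5 and 50.7 CPM in NT and at 11.0, 17.5 and 14.6 CPM in 4OHT, 3.21 times lower, with a log2 fold change of -1.64 ± 0.16 (edgeR adjusted p = 4.45e-05). This was the lowest value among the 9 genes, and without the samples numbered 1 it was -1.56.

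Lin28b was at 69.8, 80.9 and 77.3 CPM in DMSO, 62.8, 77.5 and 74.0 CPM in Fgf2/Activin and 34.7, 39.8 and 36.3 CPM in CH. These groups did not overlap with CH, at 2.06 and 1.93 times its mean. In NT it was at 35.3, 47.3 and 47.4 CPM and in 4OHT at 20.0, 40.4 and 38.1 CPM, lower in each of the 3 pairs but overlapping, with a 95% interval of the log2 fold change from -0.90 to 0.18. Its paralogue Lin28a, which acts on the same let-7 precursors, had -0.43 after 4OHT. After 4OHT Lin28b passed the p-value but not the fold with the sample number as a block, at -0.40 (edgeR adjusted p = 0.00243), and without the samples numbered 1, at -0.24 (edgeR adjusted p = 0.000609). Without them it had 1.05 for DMSO against CH.

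Between DMSO and CH, 6 of 9 genes were called higher in DMSO, against 10.2% of 16413 genes tested, and none was called lower, against 7.51% of all genes, by edgeR or DESeq2 or had an unadjusted p under 0.05 in that direction. Pou3f1, Sox3, Otx2 and Sox4 had log2 fold changes from 2.83 to 6.23, and Zic5 at 1.24 and Lin28b at 1.04 were closer to the limit. Foxd3 at 1.44, Zic2 at 0.91 and Sox11 at 0.42 were not called. The median over the 9 genes was 1.44, beside 0.0022 over all genes tested. With the sample number as a block 7 were called, Foxd3 being the addition, while all genes called rose from 2907 to 3608. Without the samples numbered 1 the count was 6, with Foxd3 in and Zic5 out at 0.89, and 3802 genes were called in all. An adjusted p under 0.01, whatever the fold or direction, was reached by 6 of 9 in the fit of all samples, where 4750 of 16413 genes reached it. It was reached by 8 with the block and 9 without the samples numbered 1, and the number of all genes at this limit is not given for those fits. Lin28b lost its call, at 0.99 in both cases, without the DMSO sample numbered 2 or the CH sample numbered 1.

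Between Fgf2/Activin and CH, which shares the CH samples with the comparison above, 5 of 9 genes were called higher, against 10.3% of all genes, and none was called lower, against 7.9%. These were Pou3f1 at 6.52, Sox3 at 3.64, Otx2 at 3.31, Sox4 at 2.45 and Zic5 at 1.35. Lin28b had 0.95 and passed the p-value but not the fold, Foxd3 had 1.77 (edgeR adjusted p = 0.0161), Zic2 had 0.90 and Sox11 had 0.51. All Fgf2/Activin samples were above all CH samples for 9 of 9 genes, as they were for 28.7% of all genes tested. Foxd3 passed with the sample number as a block, at 1.95 (edgeR adjusted p = 0.000607), and without the samples numbered 1, at 1.43. Lin28b passed without the Fgf2/Activin sample numbered 1, at 1.03, or the CH sample numbered 2, at 1.00. The median was 1.77, beside -0.0096 over all genes tested.

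Between Fgf2/Activin and DMSO none of the 9 genes was called by edgeR, against 0.902% of all genes called higher and 0.347% called lower. DESeq2, which called 379 genes in all, called 0 of the 9 as well. In the edgeR fit 0 of the 9 had an unadjusted p under 0.05, and the number of all genes at that limit is not given. With so few genes called in all, the lack of a call among 9 says little about the members. The log2 fold changes ran from -0.51 for Sox3 to 0.33 for Foxd3. The 95% intervals were -0.66 to 0.99 for Otx2, -0.61 to 1.19 for Pou3f1, -1.16 to 0.14 for Sox3, -0.76 to 1.42 for Foxd3 and -0.30 to 0.12 for Lin28b, and those of Pou3f1, Sox3 and Foxd3 reach past the fold of a call. The Fgf2/Activin samples of Otx2 all lay above those in DMSO, as for 11.8% of all genes, and those of Sox4 all lay below, as for 12.4%. Without the samples numbered 1 there was again no call among the members, with 499 genes called in all. Sox3 at -0.69 (edgeR adjusted p = 0.000124) and Zic5 at 0.21 (edgeR adjusted p = 0.00758) then passed the p-value. With the sample number as a block 424 genes were called in all in place of 205, and no member was among them.

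With the Mek inhibitor beside CHIR99021, 1 member was called lower. Between 2i and CH, Sox11 was called lower, against 1.67% of all genes, and no member was called higher, against 0.317%. Its log2 fold change was -1.63 ± 0.25 (edgeR adjusted p = 0.00264), but the call was lost without the 2i sample numbered 2 (edgeR adjusted p = 0.0110) or the CH sample numbered 2 (edgeR adjusted p = 0.0131) and in a fit of only the 6 samples compared (edgeR adjusted p = 0.0273). Lin28b had -0.74 and passed the p-value only (edgeR adjusted p = 0.00121). Pou3f1 had -2.85, with a 95% interval from -4.56 to -1.13 and few counts in 2i (edgeR adjusted p = 0.0523), and without the samples numbered 1 it passed at -3.04. The Zic genes, Foxd3, Otx2, Sox3 and Sox4 did not pass, with values from -0.82 to 0.29. Without the samples numbered 1, Otx2 at -0.90 (edgeR adjusted p = 4.25e-07) and Sox3 at -0.77 (edgeR adjusted p = 0.00737) passed the p-value but not the fold. Between Fgf2/Activin and 2i, 7 of 9 genes were called higher, against 14.4% of all genes, from 1.15 for Zic5 to 9.36 for Pou3f1. Zic2 at 0.68 and Foxd3 at 1.48 were not called. Foxd3 was called with the sample number as a block, at 1.56, and without the samples numbered 1, at 1.35, which made 8 of 9. Genes called in all, in both directions, were then 4514 and 4541, against 3857 in the fit of all samples.

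After 4OHT under CHIR99021 none of the 9 genes was called higher by edgeR or DESeq2, while 12.8% of 14893 genes tested were by edgeR. At an unadjusted p under 0.05, 1 member was higher (Sox3) and 5 were lower. At least 6621 of the 14893 genes passed that limit in 1 direction or the other. Foxd3, Otx2 and Zic5 were called lower (3 of 9), against 3.87% of all genes. The median over the 9 genes was -0.63, beside 0.0021 over all genes tested. All 4OHT samples lay below all NT samples for 5 genes, namely Otx2, Foxd3, Zic5, Zic2 and Sox4, as they did for 34.1% of all genes tested. Lower in each of the 3 pairs of equal number were 8 of 9, against 41.9% of all genes. With the sample number as a block Zic2 joined the members called lower (4 of 9), and without the samples numbered 1 the count stayed at 3. Genes called in all, in both directions, were then 2637 and 2606, against 2485 in the fit of all samples. An adjusted p under 0.01, whatever the fold or direction, was reached by 4 of 9 in the fit of all samples, where 6621 of 14893 genes reached it. With the block and without the samples numbered 1 it was reached by 7, among them Sox3, which was higher. The number of all genes at this limit is not given for those fits. In bulk RNA, fewer cells that express a gene and less RNA per cell cannot be told apart.

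**Figure D3:**
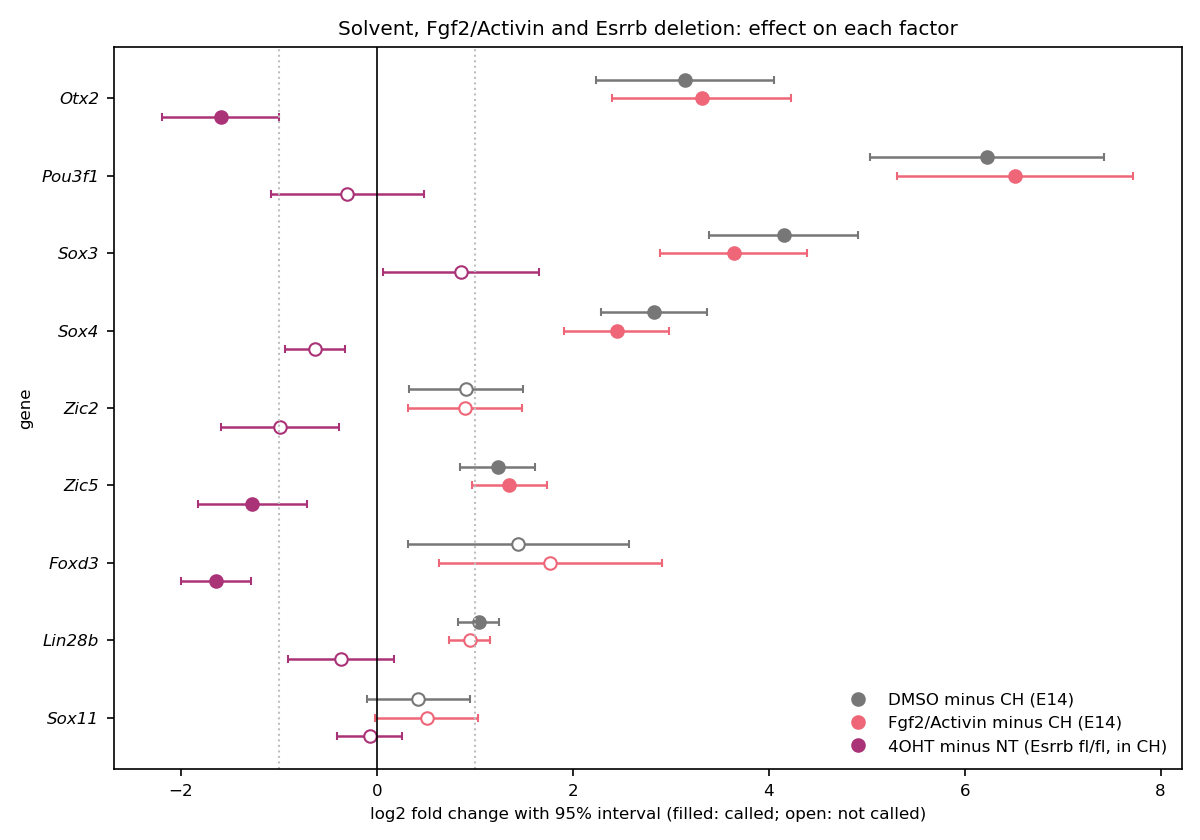
Log2 fold change (x axis) with its 95% interval for each gene (y axis) between DMSO and CH, between Fgf2/Activin and CH, and between Esrrb 4OHT and NT in CH, with filled points for genes called and dotted lines at the fold limit. Both CH comparisons share the CH samples. For 8 genes the Esrrb value is below 0 and both others are above it, and Sox3 at 0.86 lies between.

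The difference between the effects was tested directly in a joint fit of all 18 samples and 17032 genes. The effect of 4OHT minus that of DMSO was called lower for 8 of 9 members, against 5.85% of all genes called lower and 8.95% called higher. The values ran from -6.57 ± 0.68 for Pou3f1 (edgeR adjusted p = 2.40e-06) to -1.44 ± 0.27 for Lin28b (edgeR adjusted p = 0.000517). Sox11, at -0.54 with a 95% interval from -1.21 to 0.13, was not called. Against the effect of Fgf2/Activin, 8 of 9 members were again called lower, with 6.23% of all genes called lower and 9.88% called higher. Here Pou3f1 had -6.86 and Sox3, with 0.86 after 4OHT, had -2.82 ± 0.52 (edgeR adjusted p = 0.000463). Both counts were 8 without the samples numbered 1. Genes called in all were then 3225 and 3277, against 2520 and 2744 in the fit of all samples. The E14 effects were measured at 48 h and the Esrrb effect at 24 h in another line, and the part of line, time and strain in these differences cannot be told apart. By construction the E14 effect is subtracted, so a member with a large rise in DMSO has a large difference.

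Levels per kilobase of exon, which can be set beside each other between genes, ordered the members otherwise. In DMSO Zic2 led with 50.1 CPM per kb, followed by Otx2 with 44.5, Pou3f1 with 39.0 and Sox3 with 37.5 CPM per kb. Zic5 had 20.4, Foxd3 16.7, Sox11 12.6, Sox4 8.80 and Lin28b 8.39 CPM per kb. In 2i Zic2 still had 31.0 CPM per kb, whereas Pou3f1 had 0.0702 CPM per kb. In CH the highest were Zic2 with 26.6, Sox11 with 9.35, Zic5 with 8.64 and Foxd3 with 6.14 CPM per kb. Their DMSO means were 1.88, 1.35, 2.36 and 2.73 times those in CH, in the same order. In NT cells Zic2 had 31.4 and Foxd3 19.8 CPM per kb, the highest of the 9 there. The lengths are merged exons of the annotation, and for Sox4 the shared stretch is part of that length.

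The Esrrb NT cells held the same CHIR99021 dose as E14 in CH. Their mean levels were 1.17 to 1.37 times those in CH for Lin28b, Zic2, Sox11, Zic5 and Sox3, and 2.27 times for Sox4. The other 3 genes stood further apart. Otx2 was at 69.7 ± 14.7 CPM in NT against 21.2 ± 12.8 CPM in CH (SD, n = 3 each), Foxd3 at 46.1 ± 4.86 against 14.3 ± 7.22 CPM and Pou3f1 at 12.6 ± 4.74 against 1.99 ± 1.39 CPM. Esrrb itself was at 122 CPM in NT. After 4OHT, Otx2 at 22.5 ± 8.73 CPM and Foxd3 at 14.4 ± 3.24 CPM were near the means of E14 in CH. These values stand side by side with no test, since line, passage and time differ.

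A list of 21 other genes of the formative and primed states was followed as well. In DMSO against CH 10 rose, 4 fell and 7 did not pass, or 10 of 21 against 10.2% of all genes and 4 of 21 against 7.51%, with Fgf5, a growth factor that marks the post-implantation epiblast, at 7.03 and Sall2, a zinc finger factor, at 5.88. Among those that fell were Nodal, a ligand that signals through the Activin receptors, at -2.79 and the growth factor gene Fgf8 at -5.04. In Fgf2/Activin 9 of the 21 rose, against 10.3% of all genes, and 1 fell, against 7.9%. After 4OHT 3 of the 21 rose and 3 fell, against 12.8% and 3.87% of all genes. Those that rose were Fgf8 at 5.62 ± 0.46 (edgeR adjusted p = 2.03e-05), Fgf5 at 2.62 ± 0.50 (edgeR adjusted p = 0.00196) and the claudin gene Cldn6 at 1.30, and those that fell were Foxp1 at -2.34, Tcf15 at -1.91 and Grhl2 at -1.24. The median of the 21 was -0.09. Fgf5 went from 2.69 to 16.3 CPM after 4OHT, against 46.9 CPM in DMSO and 0.358 CPM in CH. The effect of 4OHT minus that of DMSO was called lower for 9 of the 21, among them Fgf5 at -4.44 ± 0.87 (edgeR adjusted p = 0.000826), against 5.85% of all genes. It was called higher for 3, against 8.95%, and these were Fgf8 at 10.65, Nodal at 3.50 and Dnd1, which codes for an RNA-binding protein, at 1.87.

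**Figure D4:**
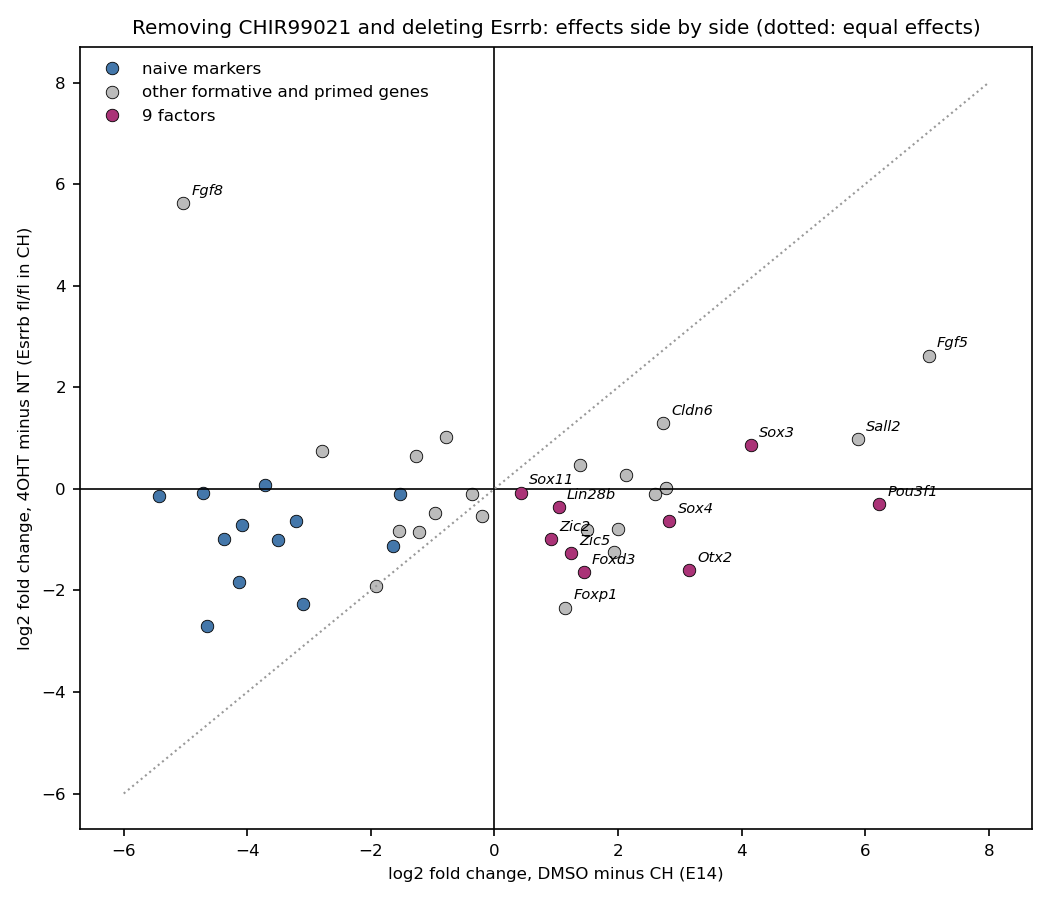
Log2 fold change of Esrrb 4OHT against NT (y axis) over that of DMSO against CH (x axis), with 1 point per gene for the 9 factors, the other formative and primed genes and the naive markers, and a dotted line of equal effects. The comparisons share no samples. The 9 factors lie right of 0, and 8 of them below 0 on the y axis.

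None of the 12 naive markers was called higher in DMSO against CH or after 4OHT, where 10.2% and 12.8% of all genes were. In DMSO against CH 12 of 12 were called lower, where 7.51% of all genes were, with a median log2 fold change of -3.89. After 4OHT 4 of 12 were called lower, where 3.87% of all genes were, with a median of -0.85. Esrrb, the deleted gene, is among the 12, with -0.99 and no call, and is part of this median. Nr0b1, an orphan nuclear receptor, had -2.71, Klf2 -2.27 and Klf4 -1.83, both Krüppel-like factors. The summed level of the 12 markers, with Esrrb included, was 942 to 1188 CPM in NT, 518 to 587 CPM in 4OHT and 108 to 270 CPM in DMSO. Over the members the sums were 368 to 473 CPM in NT, 169 to 313 CPM in 4OHT and 727 to 1046 CPM in DMSO.

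The close relatives of the members were mostly low. Of 15 paralogues 5 passed the filter in the Esrrb fit and 1 was called, Sox2, at -2.41 ± 0.12 (edgeR adjusted p = 3.24e-06). Sox2 went from 298 to 54.7 CPM after 4OHT, and it was also called lower in DMSO at -2.01 and in Fgf2/Activin at -2.28. Its SoxB1 relative Sox3 was called higher in both of those comparisons. The third SoxB1 gene, Sox1, stayed under 1 CPM in every sample. Crx, a relative of Otx2, was at 0 in all samples.

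Markers of other lineages were followed in the Esrrb comparison, in which 12.8% of all genes tested were called higher and 3.87% lower. Of 8 primitive streak markers 6 passed the filter and 4 rose, among them T (Brachyury) at 3.23 and Wnt3 at 5.40, and their sum was 81.6 to 102 CPM in NT, 468 to 587 CPM in 4OHT and 463 to 698 CPM in CH. Of 12 neural ectoderm markers 6 passed the filter, 2 rose and 2 fell, with sums of 109 to 121 CPM in NT and 270 to 276 CPM in 4OHT. Nestin (Nes), an intermediate filament gene, took 31.3 of these in NT and 204 CPM in 4OHT. The neural factors Sox1 and Pax6 stayed low, at 0.206 and 0.425 CPM in 4OHT. Olig2 was at 62.6 CPM in NT and 61.0 CPM in 4OHT and at 0 in CH. The sum of 8 neural crest markers was 37.6 to 46.0 CPM in NT and 66.3 to 93.2 CPM in 4OHT. Most of this sum was Ngfr, at 27.3 CPM in NT and 59.8 CPM in 4OHT, while Tfap2a fell from 10.6 to 2.28 CPM. Of these markers 5 passed the filter, with 4 called higher and 1 lower. The sum of 10 primitive endoderm markers was 5.52 to 7.71 CPM in NT and 6.28 to 9.25 CPM in 4OHT, and these ranges overlapped. Of these markers 5 passed the filter, with 2 called higher and 2 lower, and Ttr was at 0 in all samples. The sum of 7 trophectoderm markers was 53.2 to 70.9 CPM in NT and 50.8 to 65.9 CPM in 4OHT, which overlapped as well. Of these markers 5 passed the filter, with 2 called higher. Of 5 general pluripotency markers only Sox2 was called, and Pou5f1 (Oct4) was at 1223 CPM in NT and 842 CPM in 4OHT. The part of these lineages in the levels of the 9 genes was not tested.

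For each member the genes with the most similar profile were sought over the means of the 6 groups, as the root mean square difference of the centred log2(CPM + 1) values. Zic2 and Zic5 were the closest pair among the members, with a difference of 0.18, and Zic2 was the second nearest of all genes to Zic5. Otx2 and Sox4 were each other's nearest members at 0.50. Over all genes, Pou3f1 was nearest to Sall2 at 0.64, Sox3 to Rtn4rl1 at 0.17, and Sox4 to Otop1 at 0.19. Zic2 was nearest to Tpi1, a glycolytic enzyme gene, at 0.10, and Foxd3 to Gm12688 at 0.29. Sox11 was nearest to Vrtn at 0.23 and next to Dusp6, a phosphatase gene induced by Erk signalling, at 0.25, and both had their lowest mean in 2i. Lin28b was nearest to Syde2 at 0.13. The groups share a line or a treatment, so 6 means are few points, and the values describe likeness only.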

How the data were processed

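Poly(A) RNA of 18 samples was sequenced by the authors, who used TopHat2 for alignment to mm10 and HTSeq, set to ignore strand, for counting on the Ensembl genes of GRCm38, and deposited raw counts. The Ensembl release is not given in the sources used here, and the kit marks strand, which the counting did not use. The deposited counts were mapped to samples by title, and all columns belonged to a sample. Symbols and exons came from GENCODE (49412 of 49671 identifiers matched). The 12 E14 samples (16413 genes), the 6 Esrrb samples (14893 genes) and all 18 samples (17032 genes, for differences of effects) were fitted in R 4.3.3 with edgeR 4.0.16, with TMM scaling, filterByExpr and glmQLFTest. Calls needed a p-value below 0.01 after Benjamini-Hochberg adjustment and a log2 fold change beyond 1 in size, as in the methods of the study. The fits were tested on simulated counts that had the same dispersion for every gene and no effect of the sample number. That test therefore does not cover the difference of the samples numbered 1. Depth sets the precision of low counts, and standard errors include the spread between samples.

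Sample numbers were taken to pair the samples, because deviations from group means correlated in every pair of samples of equal number in different groups, at 0.21 to 0.70 in the E14 groups (18 pairs, mean 0.39) and 0.13 to 0.39 in the Esrrb groups (3 pairs, mean 0.24), with -0.17 and -0.11 on average for unequal numbers. Samples 2 and 3 of different groups correlated as well (0.24 to 0.44 in E14 and 0.17 to 0.21 in Esrrb), so the values set sample 1 apart from samples 2 and 3 and do not tell 2 from 3. The methods of the study name no block, so it is an alternative.

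The genes named are the 9 members, Esrrb, the 2 nearest genes by profile (not all of them are reported here) and, of each other list, the called genes with the largest fold change and a mean of at least 100 counts; Cldn6, Grhl2, Dnd1, Lin28a, Sox1, Pax6, Olig2, Crx, Ttr and Pou5f1 go beyond this and were named after their values were seen. The members and lists were chosen with earlier results of these data known. Alternatives were DESeq2 1.42.0 size factors and its Wald test, no filter on low counts, glmTreat, no minimum fold change, only the samples compared, unscaled totals, the block, each sample left out, and the samples numbered 1 left out. Figures were drawn with matplotlib 3.10.9.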

Additional observations from a re-analysis of the deposited data

Results flagged for a closer look

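The effect of 4OHT in the Esrrb line differed from that of removing CHIR99021 in E14 cells in a test of the difference itself (edgeR joint fit, 18 samples). Against DMSO the difference of log2 fold changes was -4.78 for Otx2, -6.57 for Pou3f1, -3.33 for Sox3, -3.50 for Sox4, -1.94 for Zic2, -2.55 for Zic5, -3.12 for Foxd3 and -1.44 for Lin28b. Against Fgf2/Activin it was -4.95 for Otx2, -6.86 for Pou3f1, -2.82 for Sox3, -3.12 for Sox4, -1.93 for Zic2, -2.67 for Zic5, -3.46 for Foxd3 and -1.35 for Lin28b. These sets of values share the CH samples. Sox11 was the member for which neither difference passed. Line, passage, strain and culture time differ between the E14 and the Esrrb groups and cannot be told apart from the deletion in these differences.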

How the results depend on the processing

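Of 1089 values of single members under the alternatives, 1047 kept their side of the threshold, 23 passed it anew and 19 lost it. None of the called values changed sign, but values that were not called could. Sox11 after 4OHT, for example, went from -0.07 to 0.02 without the samples numbered 1. The counts behind the main comparisons moved by over 1.5 times as follows. With glmTreat against a log2 fold change of 1, which asks more of each gene by construction, the genes called fell to 1308 (from 2907) for DMSO against CH, 1374 (from 2984) for Fgf2/Activin against CH, 47 (from 326) for 2i against CH, 57 (from 205) for Fgf2/Activin against DMSO, 2231 (from 3857) for Fgf2/Activin against 2i, 967 (from 2485) for Esrrb 4OHT against NT, and 985 (from 2520) and 1041 (from 2744) for the differences from the DMSO and the Fgf2/Activin effect. The members called lower were then 0 for 2i, 1 for 4OHT (Foxd3), 5 for the difference from DMSO and 6 for that from Fgf2/Activin. Those called higher were 4 for DMSO (Zic5 and Lin28b lost the call), 4 for Fgf2/Activin (Zic5 lost it) and 6 against 2i (Zic5 lost it). With no minimum fold change the genes called rose to 4750, 4995, 6193, 6621, 4350 and 4783 in the same order without both smaller comparisons, and 2 members were lower in 2i. The DESeq2 Wald test called 605 genes and 2 members lower for 2i and 379 genes for Fgf2/Activin against DMSO. Fits of only the 6 samples compared called 100 genes and 0 members, and 87 genes. With the replicate block these 2 comparisons had 672 and 424 genes. The block added Foxd3 to 3 comparisons and Zic2 to the calls after 4OHT and changed no other member's call. Without the samples numbered 1, chosen after seeing the data, 768 genes and 2 members were called for 2i and 499 genes for Fgf2/Activin against DMSO. The causes of these shifts were not tested.

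Leaving out each sample in turn gave 144 to 275 genes and 0 to 1 member for 2i, 112 to 171 genes for Fgf2/Activin against DMSO, and 0 to 1 member higher and 2 to 4 lower after 4OHT. The counts of members were 5 to 7 for DMSO, 5 to 6 for Fgf2/Activin and 8 for both differences. With 3 samples a group and few counts for Pou3f1 and Sox3 in 2i and CH, depth and spread limit the fold changes of those genes.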
